A study of Saccharomyces cerevisiae with 27 samples.

Results

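Mating in Saccharomyces cerevisiae, budding yeast, depends on a set of 38 genes followed here: 7 expressed in cells of the a mating type, 4 expressed in cells of the alpha mating type, 12 of the pheromone signalling pathway and 15 that pheromone induces for adhesion, cell fusion and nuclear fusion. They were chosen by name, with earlier results of these data known, and all 38 were found among the 6709 genes of the authors' deposited table. The table holds, for 5 pairwise comparisons of poly-A selected RNA, a log2 fold change per gene and its q, the Cuffdiff p corrected by false discovery rate. It carries no level, count, error or value per library, so the depth is unknown, the spread between the 3 replicates of a group enters only through q, and no value per sample can be shown. Every log2 fold change and q below comes from the authors' deposited table.

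The 27 libraries fall into 9 groups of 3, all of S. cerevisiae S288C grown in CSM medium. OLE1met250 and OLE1met0 share an integrated MET3 promoter in front of OLE1, the acyl-CoA desaturase gene, and are described as low and high in lipid unsaturation. The label for the treatment of OLE1met250 gives 0 uM methionine and repression, against unrepressed growth without methionine in OLE1met0, while the header of the table says that OLE1met250 received methionine. OLE1 itself had a log2 fold change of -0.03 (q = 0.925) between them, which does not check the labels, so this group is called the group labelled OLE1met250. If methionine was added as the header says, its own effect and that of OLE1 control or lipid unsaturation cannot be told apart. In spt23p90 and mga2p90 the plasmid pCM188 expressed the processed fragment of SPT23 or of MGA2, activators of OLE1, in the absence of doxycycline. Their counterparts spt23p90-dox and mga2p90-dox carried the same plasmids with doxycycline, so the fragment and the absence of the drug cannot be told apart. The expressed gene was higher as labelled, SPT23 5.86-fold and MGA2 13.3-fold. MGA2 was also at 4.33 on the log2 scale in the group labelled OLE1met250, 2.23 in ArgonLT and -1.46 with the SPT23 fragment (q = 0.000304 for each), so the level of this activator moved in those comparisons too, and its part in the results below was not tested. BY4742, the background strain, was grown under argon for 90 min (ArgonST), in a microfermenter for long-term hypoxia (ArgonLT) or with air (BY). ArgonLT and BY differ in vessel as well as in oxygen, which cannot be told apart, and both argon groups share the BY libraries. The labels number the replicates without saying whether they were separate cultures, so q may measure technical spread only.

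In haploid yeast, an a cell makes a-factor and a receptor for alpha-factor, and an alpha cell makes alpha-factor and a receptor for a-factor. A receptor bound to its pheromone releases the beta and gamma subunits of a G protein, which start a kinase cascade held on a scaffold; the cascade ends at the mitogen-activated kinase Fus3 and the transcription factor Ste12. Ste12 binds the pheromone response element and switches on the genes for cell adhesion, cell fusion and nuclear fusion, among them genes of the pathway itself. In alpha cells the a-specific genes are silenced by the alpha2 repressor with Mcm1. BY4742 is an alpha haploid; the labels do not give the mating type of the engineered strains.

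The 6 genes of the set with the largest finite called changes in any comparison were STE2, KAR4, AGA1, SST2, PRM1 and FUS1, and their promoters are shown for that reason; 5 of them hold more than 1 copy of the core of the pheromone response element. Each line gives the 300 bases before the coding start, 5′ to 3′ towards the gene, from the RefSeq R64 assembly. Capitals mark the core TGAAAC, which reads GTTTCA on the other strand.

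STE2 (chrVI:82280-82579, plus strand): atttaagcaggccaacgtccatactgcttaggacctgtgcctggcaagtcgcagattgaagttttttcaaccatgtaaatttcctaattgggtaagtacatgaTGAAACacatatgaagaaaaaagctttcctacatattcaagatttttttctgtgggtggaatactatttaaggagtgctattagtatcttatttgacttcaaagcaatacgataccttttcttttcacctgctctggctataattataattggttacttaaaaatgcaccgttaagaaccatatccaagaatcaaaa

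KAR4 (chrIII:27629-27928, plus strand): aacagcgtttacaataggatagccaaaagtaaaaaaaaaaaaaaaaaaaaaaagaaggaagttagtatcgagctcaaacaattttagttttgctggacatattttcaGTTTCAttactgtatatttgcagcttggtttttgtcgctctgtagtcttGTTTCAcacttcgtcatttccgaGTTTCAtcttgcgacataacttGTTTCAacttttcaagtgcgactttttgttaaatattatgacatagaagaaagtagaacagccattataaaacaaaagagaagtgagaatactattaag

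AGA1 (chrXIV:703399-703698, plus strand): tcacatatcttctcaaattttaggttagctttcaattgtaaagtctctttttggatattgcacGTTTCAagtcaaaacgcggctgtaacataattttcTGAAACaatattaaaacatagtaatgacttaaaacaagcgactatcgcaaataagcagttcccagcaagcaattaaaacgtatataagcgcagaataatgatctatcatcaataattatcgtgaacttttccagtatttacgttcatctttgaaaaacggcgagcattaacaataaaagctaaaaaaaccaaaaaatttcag

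SST2 (chrXII:1041367-1041666, minus strand): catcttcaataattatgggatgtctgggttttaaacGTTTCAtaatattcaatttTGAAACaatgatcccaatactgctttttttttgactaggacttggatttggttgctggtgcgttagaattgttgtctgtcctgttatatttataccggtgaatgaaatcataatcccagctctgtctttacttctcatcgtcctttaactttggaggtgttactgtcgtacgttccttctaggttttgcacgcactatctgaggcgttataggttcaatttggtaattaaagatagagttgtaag

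PRM1 (chrXIV:110617-110916, plus strand): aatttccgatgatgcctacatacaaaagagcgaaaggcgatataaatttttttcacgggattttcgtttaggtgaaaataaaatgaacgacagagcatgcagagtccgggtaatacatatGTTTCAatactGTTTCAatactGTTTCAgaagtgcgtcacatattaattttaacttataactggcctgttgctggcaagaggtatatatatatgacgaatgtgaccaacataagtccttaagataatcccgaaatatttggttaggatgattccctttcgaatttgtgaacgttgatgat

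FUS1 (chrIII:71503-71802, plus strand): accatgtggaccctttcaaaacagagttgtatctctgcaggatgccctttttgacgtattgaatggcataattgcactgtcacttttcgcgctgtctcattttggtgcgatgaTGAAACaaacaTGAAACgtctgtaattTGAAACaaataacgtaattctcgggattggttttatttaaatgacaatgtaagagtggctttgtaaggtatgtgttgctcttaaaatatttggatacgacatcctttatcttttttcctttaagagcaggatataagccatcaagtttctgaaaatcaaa

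STE2 held 1 core, AGA1 and SST2 2 each, PRM1 and FUS1 3 each and KAR4 4. In PRM1 the cores began 180, 169 and 158 bases before the coding start, and in FUS1 187, 176 and 160 bases before it. All 6 genes had their largest change in the group labelled OLE1met250, where all 6 fell.

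"Rose" and "fell" are used below only where the authors' q lay under 0.05, and a gene counts as tested where q lay under 1. Whether a gene was tested can depend on its level, so counts are given over tested genes and are not counts over the whole set. In the group labelled OLE1met250, 20 of 37 tested mating genes fell and 2 rose, while 14.5% of all tested genes fell and 16.7% rose. Expression of the SPT23 fragment gave 15 rises and no fall among 33 tested genes, beside 6.86% and 5.49% of all tested genes. For the MGA2 fragment, 9 of 28 rose and 1 fell, beside 12.2% and 8.58%. In ArgonST 2 of 26 rose and none fell, beside 4.86% and 2.41%, close to the background. In ArgonLT 17 of 35 rose and 3 fell, beside 24.1% and 18.4%. The median log2 fold change of the tested mating genes was -1.47 in the group labelled OLE1met250, 0.77 with the SPT23 fragment, 0.26 with the MGA2 fragment, 0.19 in ArgonST and 0.95 in ArgonLT. Over all tested genes it was -0.01, -0.04, -0.02, 0.05 and 0.10 in the same order.

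**Figure D1:**
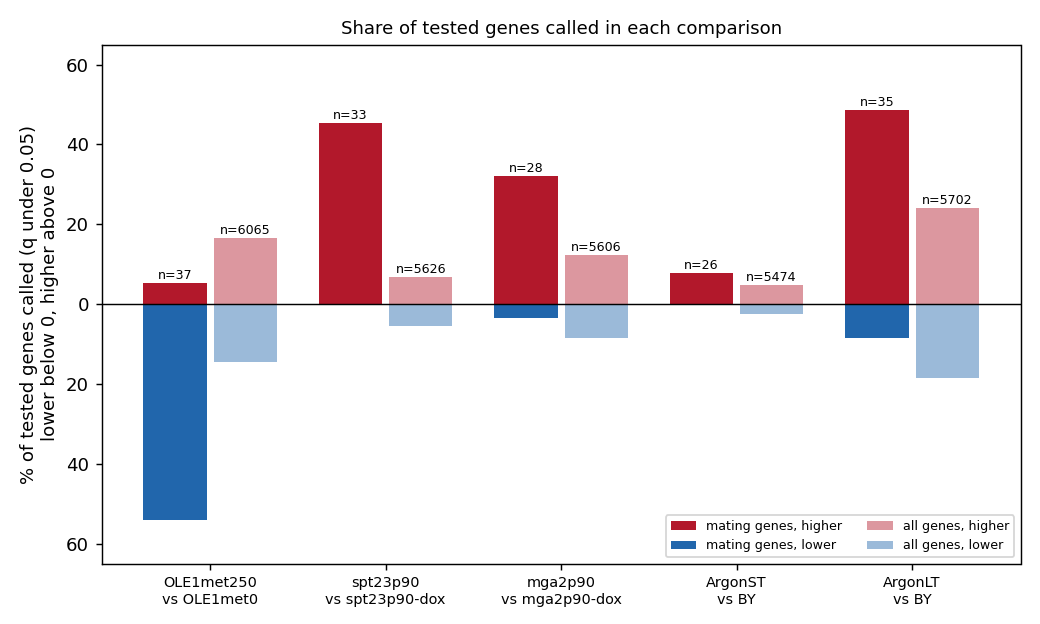
Percent of tested genes called at q under 0.05 in each of the 5 comparisons, higher above 0 and lower below 0, with strong bars for the mating genes, pale bars for all genes and the number tested above each pair. The largest lower bar is that of the mating genes in the group labelled OLE1met250 (54.1%), and the largest higher bars are theirs in ArgonLT (48.6%) and with the SPT23 fragment (45.5%).

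Of the 38 genes, 25 were tested in all 5 comparisons, 6 were called in 4 of them and none in all 5. The share of all genes called in 4 comparisons was not computed, so whether 6 is many was not tested. AGA1, FIG2, KAR4 and PRM1 behaved alike. Each fell in the group labelled OLE1met250 and rose with the SPT23 fragment, with the MGA2 fragment and in ArgonLT. GPA1 was called in the same way in those 4 comparisons. The remaining gene called in 4 comparisons, FUS3, fell in the group labelled OLE1met250 and rose with the SPT23 fragment, in ArgonST and in ArgonLT. Called in no comparison were 10 genes, of which MFA1, MFA2, AGA2, FIG1 and PRM3 were tested in at most 4 comparisons and STE18, STE5, STE7, STE20 and MSG5 in all 5.

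**Figure D2:**
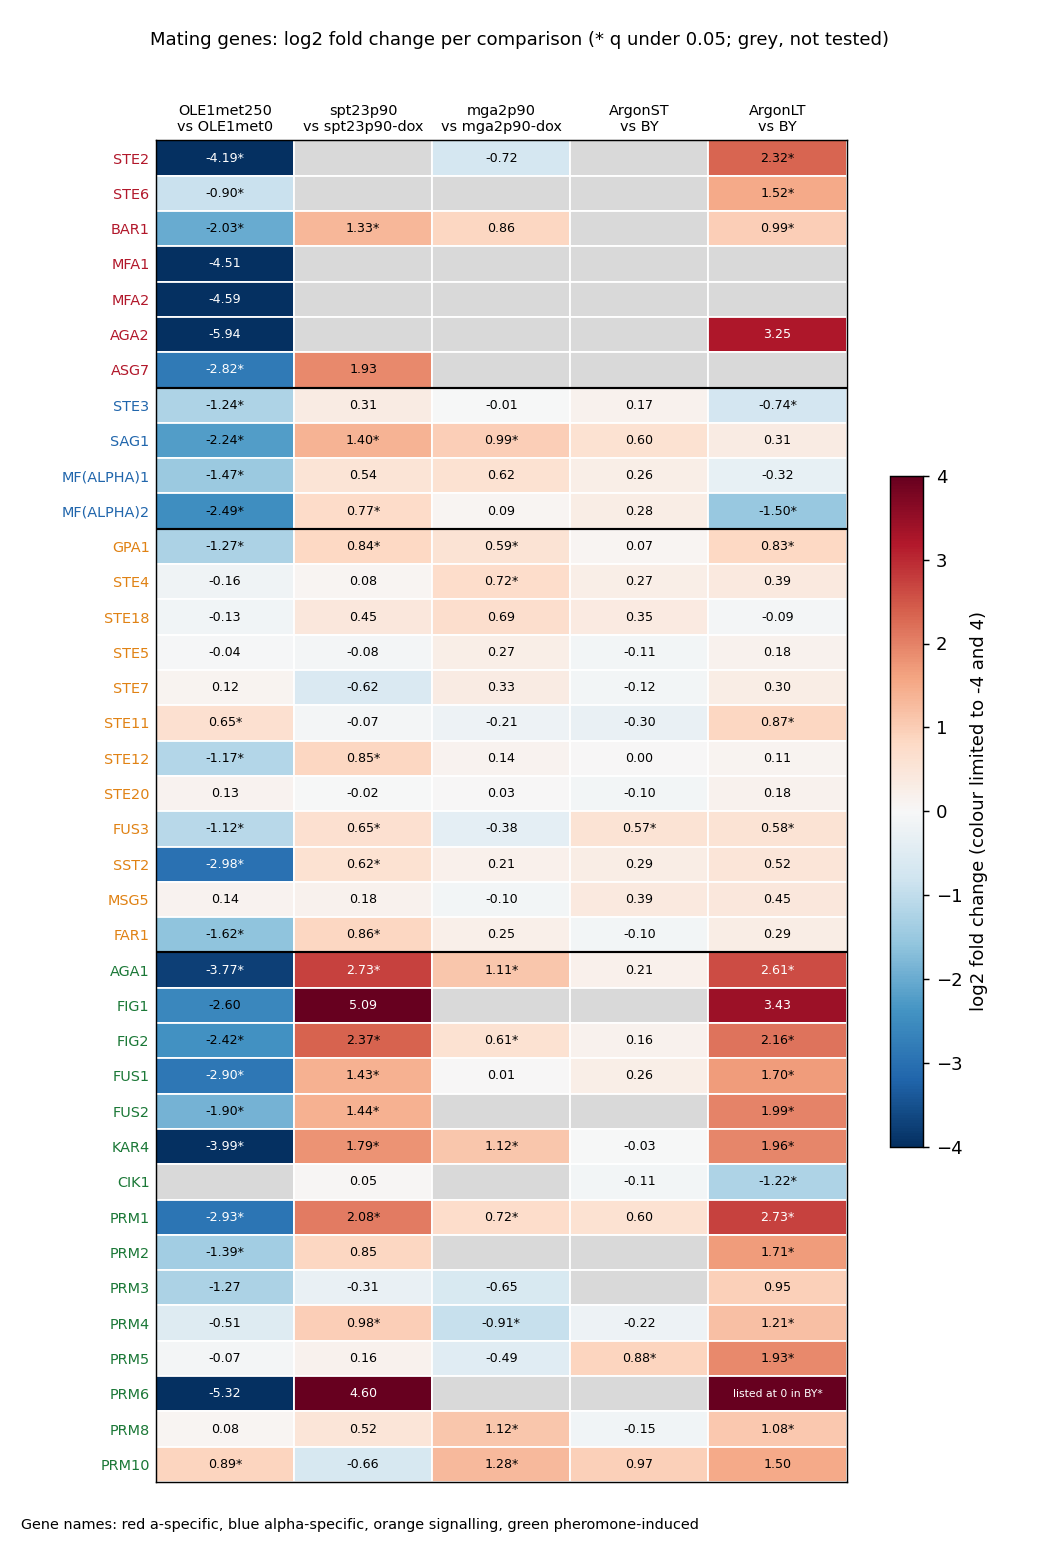
Log2 fold change of each of the 38 mating genes (down the page, by role) in the 5 comparisons (across), in red where higher and blue where lower, with an asterisk where q was under 0.05 and grey where the gene was not tested. The first column is blue for most a-specific, alpha-specific and pheromone-induced genes, and the second and last are mostly red for the pheromone-induced genes.

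The a-specific genes were tested in full only in the group labelled OLE1met250, where all 7 values were below 0. Of the 7, 4 passed the threshold, beside 14.5% of all tested genes that fell. STE2 (YFL026W, chromosome VI, 82580 to 83875, plus strand, 1 exon), the alpha-factor receptor, was 18.2-fold lower there (log2 -4.19, q = 0.000304), and no called gene with a finite ratio had a larger fall in that comparison. ASG7, which dampens pheromone signalling after mating, was at -2.82 (q = 0.0248). BAR1, the secreted protease that degrades alpha-factor, was at -2.03 (q = 0.000826). STE6, the transporter that exports a-factor, was at -0.90 (q = 0.00175). The short a-specific transcripts did not pass, although their values were larger: AGA2, the binding subunit of a-agglutinin, was at -5.94 (q = 0.131), and the a-factor genes MFA2 and MFA1 were at -4.59 (q = 0.155) and -4.51 (q = 0.104). MFA1 is 111 bp long, MFA2 117 bp and AGA2 264 bp.

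Outside that comparison the a-specific genes were often not tested. In ArgonST none of the 7 was. Under the SPT23 fragment, BAR1 rose by 1.33 (q = 0.0314) and ASG7 was at 1.93 (q = 0.170), and the other 5 were not tested. For the MGA2 fragment, the tested genes were BAR1 at 0.86 (q = 0.0958) and STE2 at -0.72 (q = 0.215). In ArgonLT, 3 of 4 tested genes rose, beside 24.1% of all tested genes. STE2 was 4.99-fold higher than in BY (log2 2.32, q = 0.00153), STE6 rose by 1.52 (q = 0.00130) and BAR1 by 0.99 (q = 0.0418), while AGA2 was at 3.25 (q = 0.164). The table lists MFA1 at 10 there with a q of 1, a value read as no transcript listed in BY, and this is not a test. The levels behind these ratios were not used here, so a rise of an a-specific gene in an alpha strain does not say how much of it was present.

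The alpha-specific genes were tested in every comparison. In the group labelled OLE1met250 all 4 fell, beside 14.5% of all tested genes. MF(ALPHA)2 and MF(ALPHA)1, which encode alpha-factor, were at -2.49 and -1.47, SAG1, the alpha-agglutinin by which alpha cells adhere to a cells, was at -2.24, and STE3, the a-factor receptor, at -1.24 (q = 0.000304 for each). In that group, genes of both mating types were lower together. Under the SPT23 fragment, SAG1 was 2.64-fold higher (log2 1.40, q = 0.000304) and MF(ALPHA)2 rose by 0.77 (q = 0.00686), while MF(ALPHA)1 was at 0.54 (q = 0.105) and STE3 at 0.31 (q = 0.393). SAG1 alone passed with the MGA2 fragment, at 0.99 (q = 0.00435). None passed in ArgonST, with values between 0.17 and 0.60. Of all tested genes 6.86% rose with the SPT23 fragment, 12.2% with the MGA2 fragment and 4.86% in ArgonST.

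ArgonLT was the comparison in which the 2 mating-type sets were called in opposite directions. MF(ALPHA)2 fell by 1.50 (q = 0.000304) and STE3 by 0.74 (q = 0.0212), beside 18.4% of all tested genes that fell there. MF(ALPHA)1 was at -0.32 (q = 0.346) and SAG1 at 0.31 (q = 0.391). The difference between the sets was not tested. MF(ALPHA)1 and MF(ALPHA)2 share an identical run of 23 bp at most and MFA1 and MFA2 one of 11 bp, by the RefSeq sequences.

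Of the 3 subunits of the G protein, GPA1 was called in 4 comparisons, STE4 in 1 and STE18 in none. GPA1 (YHR005C, chromosome VIII, 113499 to 114917, minus strand, 1 exon), the alpha subunit of the G protein, was at -1.27 in the group labelled OLE1met250 (q = 0.000304). It rose with the SPT23 fragment by 0.84 (q = 0.000826), with the MGA2 fragment by 0.59 (q = 0.0244) and in ArgonLT by 0.83 (q = 0.000574). STE4, the beta subunit, passed only with the MGA2 fragment, at 0.72 (q = 0.00599), and was at -0.16 (q = 0.627) in the group labelled OLE1met250. STE18, the gamma subunit, passed in no comparison, with values from -0.13 to 0.69. Its span in the table also covers EMC2, and no source used here says whether counting used the strand, so reads of the 2 genes may not be separated.

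Of the scaffold and the 3 kinases upstream of Fus3, STE11 alone was called in any comparison. STE20, the kinase that receives the signal, stayed between -0.10 and 0.18 in all 5 comparisons, and STE5, the scaffold, between -0.11 and 0.27. STE7, the kinase of Fus3, ranged from -0.62 (q = 0.198) with the SPT23 fragment to 0.33. STE11, the kinase of Ste7, rose by 0.65 in the group labelled OLE1met250 (q = 0.0156), where most other called mating genes fell. It also rose by 0.87 in ArgonLT (q = 0.00397), where 17 of 35 tested mating genes rose.

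At the nuclear end, FUS3, the mitogen-activated kinase, was at -1.12 in the group labelled OLE1met250 (q = 0.000304) and rose by 0.65 with the SPT23 fragment (q = 0.0229), 0.57 in ArgonST (q = 0.0366) and 0.58 in ArgonLT (q = 0.0330). STE12, the transcription factor of the response, was at -1.17 in the group labelled OLE1met250 and at 0.85 with the SPT23 fragment (q = 0.000304 for each). FAR1, which arrests the cell cycle in response to pheromone and helps to orient growth, was at -1.62 and 0.86 in the same 2 comparisons (q = 0.000304 for each). Neither STE12 nor FAR1 passed with the MGA2 fragment or under argon.

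Of the inhibitors, SST2, the GTPase-activating protein that switches the G protein off, had the larger changes. It was 7.87-fold lower in the group labelled OLE1met250 (log2 -2.98, q = 0.000304) and rose by 0.62 with the SPT23 fragment (q = 0.0192). In ArgonLT it was at 0.52 (q = 0.0826). MSG5, the phosphatase that acts on Fus3, passed nowhere, with values from -0.10 to 0.45. Of 12 signalling genes, 5 fell and 1 rose in the group labelled OLE1met250, 5 rose with the SPT23 fragment, 2 with the MGA2 fragment, 1 in ArgonST and 3 in ArgonLT. The median of the 12 was -0.15, 0.32, 0.23, 0.04 and 0.34 in that order of comparisons. Of all tested genes, 14.5% fell and 16.7% rose in the group labelled OLE1met250. With the SPT23 fragment 6.86% rose, with the MGA2 fragment 12.2%, in ArgonST 4.86% and in ArgonLT 24.1%. The signalling genes were close to the last 3 of these shares, at 16.7%, 8.33% and 25%.

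The 15 genes for adhesion, fusion and karyogamy (the fusion of the nuclei) had calls in all 5 comparisons. In the group labelled OLE1met250, 7 of 14 tested fell and 1 rose (median log2 -2.16). With the SPT23 fragment 7 of 15 rose (median 1.43), with the MGA2 fragment 6 of 10 rose and 1 fell (median 0.67), in ArgonST 1 of 10 rose (median 0.18) and in ArgonLT 11 of 15 rose and 1 fell (median 1.93). Of all tested genes, 14.5% fell and 16.7% rose in the group labelled OLE1met250. In the other comparisons 6.86%, 12.2%, 4.86% and 24.1% rose, in the same order. AGA1 (YNR044W, chromosome XIV, 703699 to 705876, plus strand, 1 exon), the subunit that anchors a-agglutinin in the cell wall, was 13.6-fold lower in the group labelled OLE1met250 (log2 -3.77). It was 6.65-fold higher with the SPT23 fragment (log2 2.73), 2.16-fold higher with the MGA2 fragment (log2 1.11) and 6.11-fold higher in ArgonLT (log2 2.61), with a q of 0.000304 in all 4. In ArgonST AGA1 was at 0.21 (q = 0.482). Its partner gene AGA2 was tested only in the group labelled OLE1met250 (-5.94, q = 0.131) and in ArgonLT (3.25, q = 0.164). AGA2 passed in neither, though both values had the sign of AGA1, so only 1 of the 2 subunits has a called change.

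FIG2, a cell wall adhesin of mating cells, was at -2.42 in the group labelled OLE1met250, 2.37 with the SPT23 fragment and 2.16 in ArgonLT (q = 0.000304 for each), and at 0.61 with the MGA2 fragment (q = 0.0182). PRM1, which acts in the fusion of the plasma membranes, was at -2.93, 2.08, 2.73 and 0.72 in the same order (q = 0.000304 for the first 3 and 0.0377 for the last). FUS1, a membrane protein needed for cell fusion, was at -2.90 in the group labelled OLE1met250, 1.43 with the SPT23 fragment and 1.70 in ArgonLT (q = 0.000304 for each). With the MGA2 fragment it was at 0.01 (q = 0.985). FUS2, which also acts in cell fusion, was at -1.90 (q = 0.000304), 1.44 (q = 0.0206) and 1.99 (q = 0.00822) in the first 3 of these comparisons and was not tested in the other 2. FIG1, a membrane protein that promotes calcium entry during mating, had a value of 5.09 with the SPT23 fragment (q = 0.242), -2.60 in the group labelled OLE1met250 (q = 0.143) and 3.43 in ArgonLT (q = 0.164), and passed in none.

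KAR4 (YCL055W, chromosome III, 27929 to 28936, plus strand, 1 exon), a transcription factor for karyogamy genes, was 15.9-fold lower in the group labelled OLE1met250 (log2 -3.99, q = 0.000304). It was 3.46-fold higher with the SPT23 fragment (log2 1.79, q = 0.000304), 2.18-fold higher with the MGA2 fragment (log2 1.12, q = 0.00218) and 3.90-fold higher in ArgonLT (log2 1.96, q = 0.000304). CIK1, the partner of the kinesin Kar3 in karyogamy, went the other way in ArgonLT, where it fell by 1.22 (q = 0.0202). PRM2, which also acts in karyogamy, was at -1.39 in the group labelled OLE1met250 (q = 0.00527) and 1.71 in ArgonLT (q = 0.00581). PRM3, which acts in the fusion of the nuclear envelopes, passed nowhere, with values of -1.27 (q = 0.0923) in the group labelled OLE1met250 and 0.95 (q = 0.360) in ArgonLT.

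The other pheromone-regulated membrane proteins were less alike. PRM4 was at -0.51 in the group labelled OLE1met250 (q = 0.0675), rose by 0.98 with the SPT23 fragment (q = 0.00634) and by 1.21 in ArgonLT (q = 0.000304), and fell by 0.91 with the MGA2 fragment (q = 0.0453). It was the one gene of the set called in opposite directions with the 2 fragments; the difference between the fragments was not tested. PRM5, which is also induced by cell wall stress, was at -0.07 (q = 0.823) in the group labelled OLE1met250 and rose in both argon groups, by 0.88 in ArgonST (q = 0.00239) and 1.93 in ArgonLT (q = 0.000304). PRM6, a potassium transporter, had large ratios that did not pass, at -5.32 (q = 0.165) in the group labelled OLE1met250 and 4.60 (q = 0.254) with the SPT23 fragment. In ArgonLT it passed with a value listed at 10 (q = 0.000304), that is with no transcript listed in BY, so no fold is given.

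PRM8 and PRM10 did not follow the pheromone-induced genes in the group labelled OLE1met250. PRM8 was at 0.08 there (q = 0.822) and rose by 1.12 with the MGA2 fragment (q = 0.00509) and by 1.08 in ArgonLT (q = 0.00299). It shares an identical run of 282 bp with PRM9, so reads can be split between the copies and its value is uncertain. PRM10 rose by 0.89 (q = 0.0397) in the group labelled OLE1met250 and by 1.28 (q = 0.00339) with the MGA2 fragment, and was at -0.66 (q = 0.195) with the SPT23 fragment and 1.50 (q = 0.0604) in ArgonLT. Its span in the table also covers the neighbouring YJL107C.

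The comparisons of the group labelled OLE1met250 and of the SPT23 fragment share no libraries. Of 32 genes tested in both, 18 fell in the first and 15 rose in the second, and 14 did both, which is 77.8% of those that fell and 93.3% of those that rose. Over all genes tested in both, 70 did both, which is 8.11% of those that fell and 19.0% of those that rose. The one riser outside the overlap was PRM4, and the 4 that fell without a called rise were STE3, MF(ALPHA)1, ASG7 and PRM2. Across the 32 genes Pearson's r between the 2 sets of log2 values was -0.79 and Spearman's rho -0.83, against 0.05 and 0.03 across 5532 genes of the table. These are descriptions over genes that share regulation and come from the same libraries, and the genes are not independent replicates. With the MGA2 fragment in place of the SPT23 fragment, r over 28 mating genes was -0.10, beside 0.21 over 5507 genes of the table. Of the 9 mating genes that rose, 6 had fallen in the group labelled OLE1met250 (66.7%), beside 13.3% of the 678 genes of the table that rose. Between ArgonLT and the group labelled OLE1met250 r was -0.50 over 33 genes, beside 0.10 over 5579. Of the 17 mating genes that rose in ArgonLT, 12 had fallen in the group labelled OLE1met250 (70.6%), beside 21.2% of 1349 risers in the table. Between ArgonLT and the SPT23 fragment r was 0.65 over 31 genes, beside 0.25 over 5481 genes of the table. Between ArgonLT and the MGA2 fragment the order was reversed, with r at 0.10 over 28 mating genes and 0.46 over 5465 genes of the table. Between the 2 fragments, which share the drug contrast but no libraries, r was 0.34 over 27 genes, beside 0.12 over 5444. By rank the mating genes and the table were alike for this pair, with a Spearman's rho of 0.28 and 0.25.

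**Figure D3:**
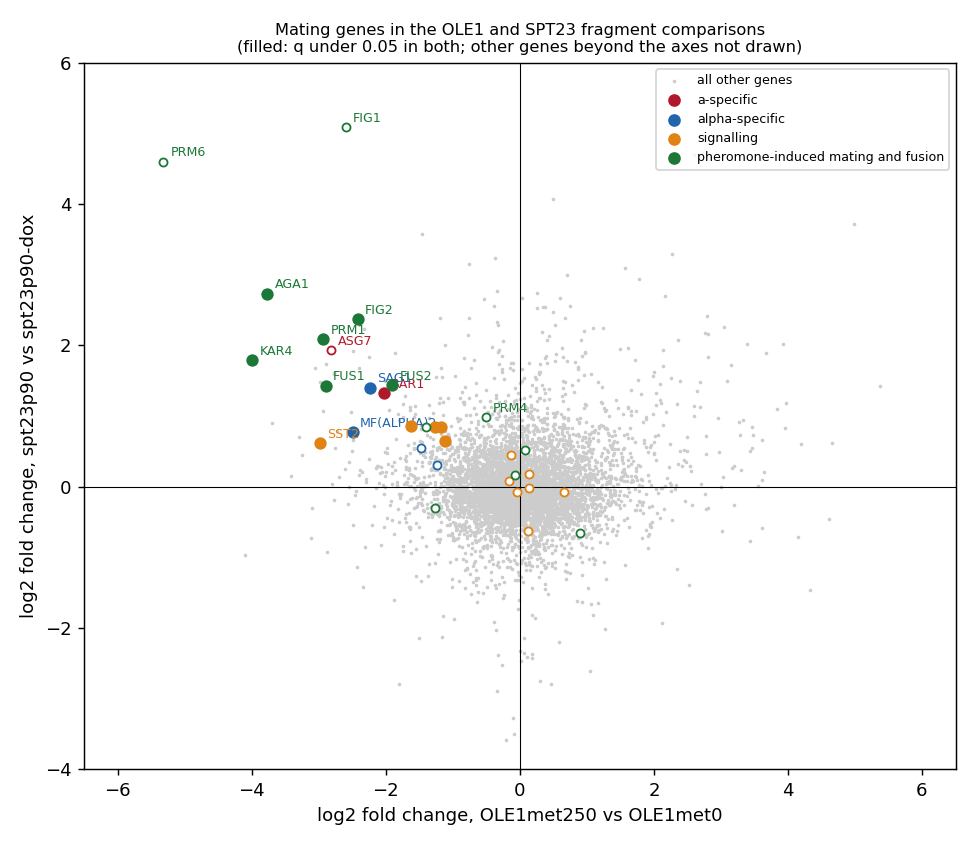
Log2 fold change of each gene tested in both comparisons, the group labelled OLE1met250 on the x axis and the SPT23 fragment on the y axis, with mating genes coloured by role and filled where q was under 0.05 in both, and the other genes in grey. The 14 filled points all lie to the upper left of the origin, from FUS3 (-1.12, 0.65) to AGA1 (-3.77, 2.73).

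Among the largest changes of the table, 9 of the 50 largest called falls in the group labelled OLE1met250 were mating genes, with STE2, KAR4 and AGA1 at ranks 1, 3 and 4 of 882. Likewise 4 of the 50 largest finite rises with the SPT23 fragment were mating genes, led by AGA1 at rank 8 of 374. Mating genes made up 20 of those 882 falls and 15 of those 374 rises. In ArgonLT the highest mating gene among 1340 finite rises was PRM1 at rank 137, and with the MGA2 fragment it was PRM10 at rank 205 of 672.

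The promoters were searched on both strands, in the 300 bases before the coding start, for TGAAAC, for the longer TGAAACA that contains it, and for a palindromic core of the Mcm1 box, which is CC and GG with 6 bases of any kind between them. TGAAAC was present in 25 of 38 mating genes (65.8%), against 19.4% of 6001 protein-coding genes, and more than 1 copy in 15 (39.5%) against 2.08%. The longer form was in 19 of 38, against 7.20% of protein-coding genes. By role, TGAAAC was in all 7 a-specific genes, 2 of 4 alpha-specific, 4 of 12 signalling and 12 of 15 pheromone-induced genes. This core of the Mcm1 box, searched without mismatches, was in all 7 a-specific genes and in none of 4 alpha-specific genes. It was in 6 of 12 signalling genes and in 1 of 15 pheromone-induced genes (PRM2), against 28.7% of protein-coding genes. Boxes that differ from this core were not searched for. The 8 signalling genes without TGAAAC in the window were STE4, STE5, STE7, STE11, STE20 and MSG5, none of which fell in any comparison, and GPA1 and STE12, which fell in the group labelled OLE1met250. FIG2 and SAG1, among the genes that moved most, also had none. A match of these letters is a description and not a binding site, and the set was assembled for its known role in mating, which the element serves.

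In the group labelled OLE1met250, 11 of 14 tested mating genes with more than 1 TGAAAC fell and none rose (median log2 -2.71). Of the 10 with 1 copy 4 fell (median -1.51), and of the 13 without a copy 5 fell and 2 rose (median -0.04). Under the SPT23 fragment, 10 of 15 genes with more than 1 copy rose (median 1.43), 1 of 5 with 1 copy and 4 of 13 without (median 0.18). The MGA2 fragment gave another order: 3 of 10 genes with more than 1 copy rose and 1 fell (median 0.15), none of 5 with 1 copy was called, and 6 of 13 without a copy rose (median 0.59). In ArgonLT 9 of 14 genes with more than 1 copy rose and 3 fell (median 1.46), 4 of 8 with 1 copy rose (median 1.61) and 4 of 13 without a copy rose (median 0.39). ArgonST had 1 rise among 10 genes with more than 1 copy, 1 among 3 with 1 copy and none among 13 without. Genes outside the set are given for comparison. In the group labelled OLE1met250, 19.8% of 101 other tested genes with more than 1 copy fell and 19.8% rose, against 15.2% and 18.1% of 4524 without a copy. With the SPT23 fragment 6.12% of 98 such genes rose and none fell, against 6.82% and 6.06% of 4337. With the MGA2 fragment 10.9% of 92 rose and 10.9% fell, against 12.7% and 8.75% of 4330, and in ArgonLT 18.4% of 98 rose and 12.2% fell, against 25.2% and 19.3% of 4384.

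**Figure D4:**
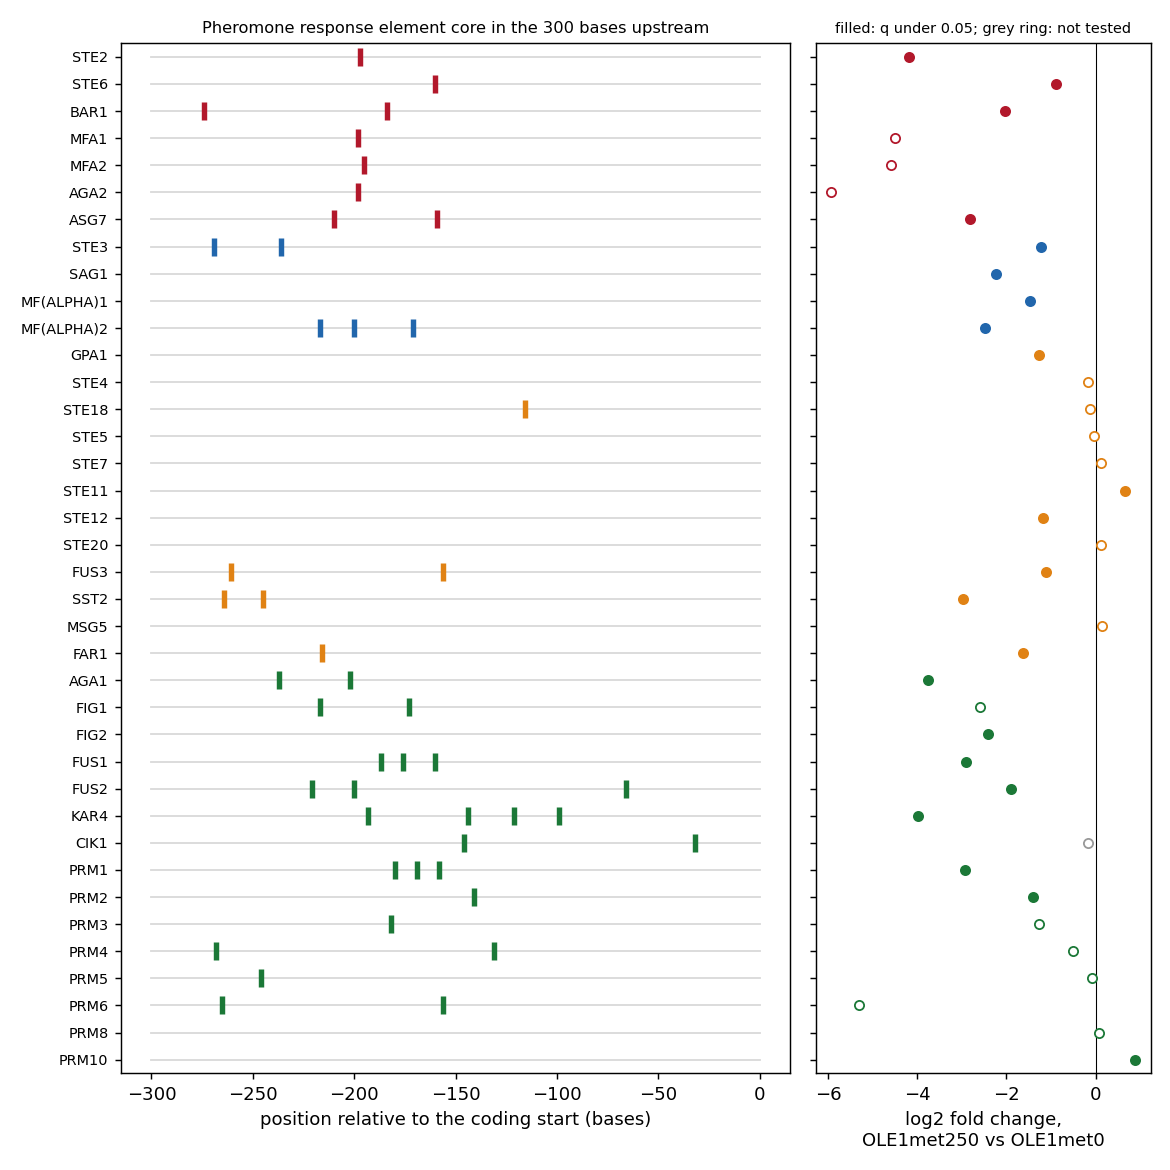
Left, position of each TGAAAC match relative to the coding start (x axis, bases) for the 38 mating genes, red for a-specific, blue for alpha-specific, orange for signalling and green for pheromone-induced genes; right, the log2 fold change of each gene in the group labelled OLE1met250, filled where q was under 0.05. KAR4 has 4 matches and a value of -3.99, and the signalling genes without a match mostly lie near 0.

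Neighbouring gene lists were followed for comparison. Their counts stand beside these shares of all tested genes. In the group labelled OLE1met250 16.7% rose and 14.5% fell, with the SPT23 fragment 6.86% and 5.49%, and with the MGA2 fragment 12.2% and 8.58%. In ArgonST the shares were 4.86% and 2.41%, and in ArgonLT 24.1% and 18.4%. Of the pheromone processing and export genes, 3 of 10 fell and 1 rose in the group labelled OLE1met250: STE14, the methyltransferase of a-factor, was at -1.29 (q = 0.000574), AXL1, a protease that cuts the a-factor precursor, at -1.16 (q = 0.000304), and STE24, another a-factor protease, at 1.07 (q = 0.000304). None of the 10 was called with the SPT23 fragment. With the MGA2 fragment 1 fell (STE24, -0.55, q = 0.0387), in ArgonST 1 rose (AXL1, 0.56, q = 0.0363), and in ArgonLT 1 rose (AXL1, 0.84) and 2 fell (STE24, -1.22, and RCE1, -1.15). Of 11 further pathway proteins, 1 rose and 1 fell in the group labelled OLE1met250, 2 and 1 with the SPT23 fragment, 2 and none with the MGA2 fragment, none in ArgonST, and 3 and 1 in ArgonLT. In ArgonLT that is 27.3% and 9.09%, so the rises were close to the share of all tested genes. KSS1, the kinase related to Fus3, rose with both fragments, by 0.85 (q = 0.00472) with that of SPT23 and 0.84 (q = 0.00435) with that of MGA2. DIG2, an inhibitor of Ste12, was at -0.90 (q = 0.0343) in the group labelled OLE1met250 and 0.95 (q = 0.0244) with the SPT23 fragment. PTP2 rose in the group labelled OLE1met250 (1.30, q = 0.000304), against the direction of most called mating genes, and in ArgonLT (1.04, q = 0.00107). CDC24 fell with the SPT23 fragment (-0.82, q = 0.00669) and CDC42 in ArgonLT (-1.15, q = 0.000826). PTP3 rose with the MGA2 fragment (0.75, q = 0.0102) and DIG1 in ArgonLT (0.81, q = 0.00130).

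Of 10 further genes known to respond to pheromone, KAR5, which acts in nuclear fusion, was at -1.64 in the group labelled OLE1met250 and rose by 1.09 with the SPT23 fragment, 1.07 with the MGA2 fragment and 1.86 in ArgonLT (q = 0.000304, 0.00435, 0.0140 and 0.00130). AFR1, which shapes the mating projection, was at 0.41 (q = 0.134) in the group labelled OLE1met250 and rose by 1.04, 0.79 and 2.30 in the other 3. PRM7 rose in the group labelled OLE1met250 (1.52) and in ArgonLT (2.22) and fell with the MGA2 fragment (-1.35), with a q of 0.000304 in each. The list as a whole had 3 rises and 2 falls among 10 in the group labelled OLE1met250, 3 and none of 10 with the SPT23 fragment, 2 and 2 of 9 with the MGA2 fragment, none of 10 in ArgonST, and 4 and 1 of 10 in ArgonLT. It does not follow the 15 pheromone-induced genes of the set in the group labelled OLE1met250, where its median was 0.29 beside -2.16 for them.

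Of the filamentous branch, which shares Ste12 and the upper kinases, TEC1, the partner of Ste12 at filamentation genes, moved as KAR4 and AGA1 did in 3 comparisons. TEC1 was at -1.75 in the group labelled OLE1met250, 1.16 with the SPT23 fragment and 2.58 in ArgonLT (q = 0.000304 for each), and at -0.08 (q = 0.808) with the MGA2 fragment. MSB2, a mucin at the head of the branch, fell by 0.83 with the MGA2 fragment (q = 0.00153) and by 1.28 in ArgonLT (q = 0.000304). The branch had 1 rise (HKR1, 0.82) and 1 fall among 6 tested in the group labelled OLE1met250, 1 rise with the SPT23 fragment, 1 fall with the MGA2 fragment, none of 5 in ArgonST, and 3 rises and 2 falls in ArgonLT. In the group labelled OLE1met250 that is 16.7% each way, close to the 16.7% and 14.5% of all tested genes. FLO11 was not tested in any comparison.

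Cyclins and an inhibitor of the G1 phase, the point at which pheromone arrests the cell, were called in 2 comparisons. In the group labelled OLE1met250, 5 of 6 tested rose and none fell, beside 16.7% and 14.5% of all tested genes, with the G1 cyclins CLN2 at 2.53, PCL1 at 1.68 and CLN3 at 1.32 (q = 0.000304 for each) and the inhibitor SIC1 at 0.63 (q = 0.0220). In ArgonLT 3 of 6 fell and none rose, beside 18.4% and 24.1% of all tested genes, with CLN1 at -1.47, PCL1 at -1.27 and CLN2 at -1.10 (q = 0.000304 for each). CLN3, SIC1 and CLB5 were not called there, at -0.17, -0.41 and 0.14. The difference between these genes and the mating genes was not tested. None was called with either fragment or in ArgonST. Whether the share of cells in G1 differed between groups was not tested, and fewer cells in a phase cannot be told apart from less RNA per cell in bulk samples.

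**Figure D5:**
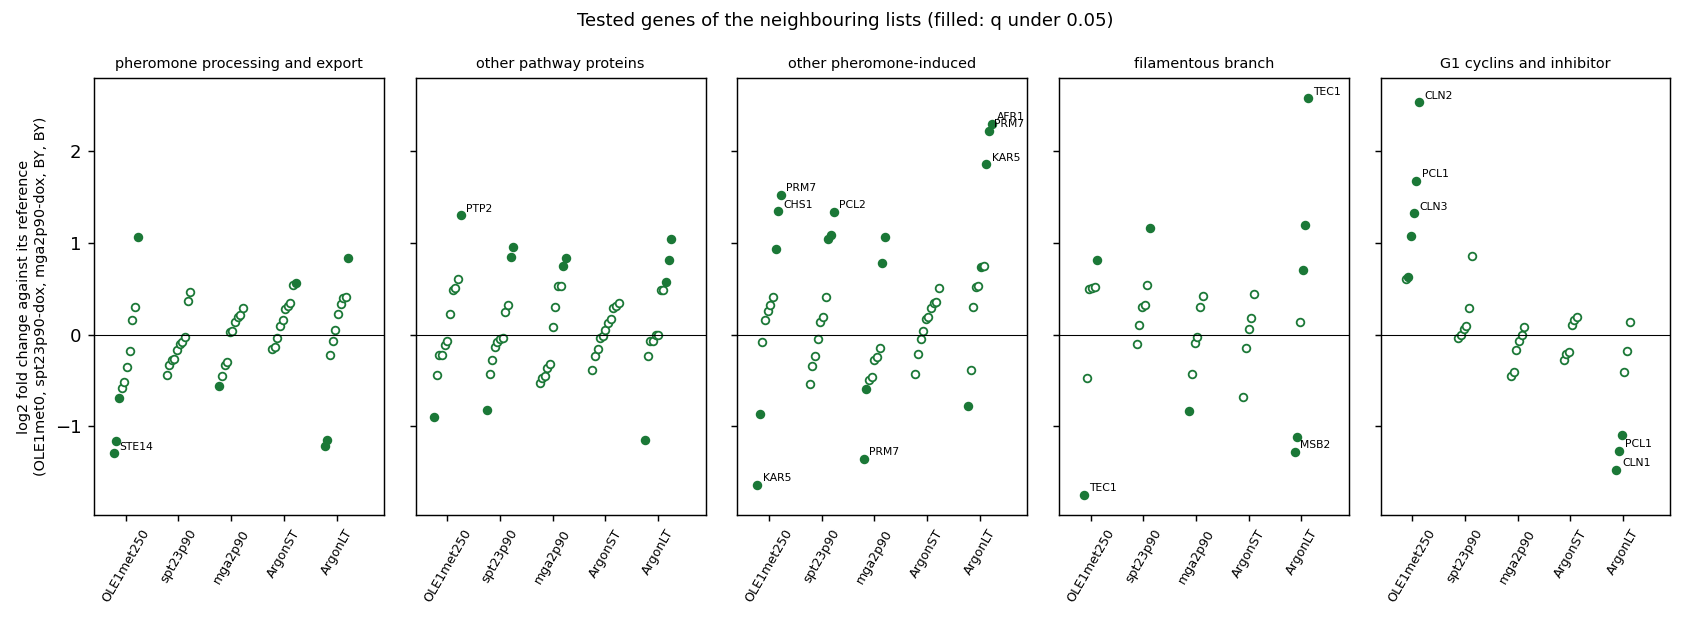
Log2 fold change of the tested genes of 5 neighbouring lists (panels) in the 5 comparisons (x axis), filled where q was under 0.05. TEC1 and KAR5 lie lowest in the group labelled OLE1met250, at -1.75 and -1.64, and CLN2 highest, at 2.53.

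The lists that check cell identity were thinly tested. Of 7 meiosis genes, which an a/alpha diploid but not a haploid can induce fully, 1 was tested in the group labelled OLE1met250 (NDT80, -0.22, q = 0.538) and none was called. Elsewhere 1 of 5 tested rose with the MGA2 fragment (SPO11, 1.45, q = 0.0287) and 1 of 3 in ArgonST (IME2, 1.68, q = 0.0111). In ArgonLT 1 of 2 rose (NDT80, 1.31, q = 0.000304), and with the SPT23 fragment none of 4. Of all tested genes 12.2%, 4.86%, 24.1% and 6.86% rose in the same order. Of 12 mating-type and silencing genes, at most 6 were tested. SIR1, which helps to silence the spare mating-type cassettes, fell by 1.74 (q = 0.000304) in the group labelled OLE1met250 and rose by 1.40 (q = 0.00599) with the MGA2 fragment and 1.38 (q = 0.000304) in ArgonLT. HO, the mating-type switching endonuclease gene, fell in both argon groups, at -0.62 (q = 0.0192) in ArgonST and -2.99 (q = 0.000304) in ArgonLT. RME1, a haploid-specific repressor of meiosis, rose by 0.55 (q = 0.0470) with the MGA2 fragment and by 1.22 (q = 0.000304) in ArgonLT. Silencing changes and changes of the mating genes were not tested against each other.

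Stricter rules lowered the counts in every comparison. In either direction, 22 of 37 tested mating genes were called in the group labelled OLE1met250 (31.2% of all tested genes), 19 at a q under 0.01 (21.0%) and 19 with a change of at least 2-fold (15.4%). With the SPT23 fragment the counts were 15 (12.4%), 11 (6.08%) and 8 (4.82%) of 33. With the MGA2 fragment they were 10 (20.8%), 6 (11.2%) and 4 (8.13%) of 28. In ArgonST they were 2 (7.27%), 1 (2.85%) and 0 (2.10%) of 26, and in ArgonLT 20 (42.5%), 16 (31.6%) and 15 (26.1%) of 35.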

How the data were processed

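RNA from 27 libraries in 9 groups of 3 was sequenced by the submitters in paired ends after poly-A selection; groups were taken from the sample titles. Trimmomatic 0.33, TopHat2 2.0.14, Cuffdiff 2.2.1 and build R64 are named in the submitters' processing notes; their settings, the annotation and strand handling were not given in the sources used here. Per the file headers, the deposited values are log2 differential expression, read with the group named first as numerator, and q values from the authors. Groups were compared through these alone. Values of exactly 10 or -10 were read, from the values and not a header, as no finite ratio. Depth is unknown.

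The 38 members, their roles and the neighbouring lists were chosen with earlier results of these data known. Named are all members, and of each neighbouring list up to 3 called genes with the largest finite change, together with other genes of those lists chosen after their values were seen. Positions and promoters are those of RefSeq R64; 32 of the 38 members have the same span there as in the table, whose starts are 1 base lower. Promoters shown are the first 6 by largest called finite change. Counting and motif search were tested on simulated data with Python 3.11.15 and pandas 2.3.3. Alternatives were a q under 0.01, a minimum change of 2-fold, values of 10 or -10 left out, centring on the median of tested genes, no filter on q for medians and, chosen after seeing the data, leaving out members whose span in the table is wider than the gene.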

Additional observations from a re-analysis of the deposited data

How the results depend on the processing

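Of the counts of mating genes called in the 5 comparisons, those of the group labelled OLE1met250 and of ArgonLT stayed within 1.5 times under every alternative run. At a q under 0.01 the MGA2 fragment gave 6 in place of 10 and ArgonST 1 in place of 2. With a minimum change of 2-fold the SPT23 fragment gave 8 in place of 15, the MGA2 fragment 4 in place of 10 and ArgonST 0 in place of 2. That rule removes small changes by its construction. Leaving out values of 10 or -10, or leaving out the 6 genes with a wider span, kept all 5 counts within 1.5 times. The first of these could remove only PRM6 in ArgonLT, the only called mating gene with such a value. Centring on the median of tested genes shifts ArgonLT by 0.10 and the others by less. Centring leaves q as deposited, so it could not change these counts. No called gene could change sign under centring, because the smallest called change was 0.51 on the log2 scale. Without a filter on q the median of the mating genes with the SPT23 fragment was 0.63 in place of 0.77. No paired analysis was possible because the table has no value per library, and for the same reason no replicate could be left out.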

Other observations

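The genes of the mating-type locus and of its silent copies could not be read from the ratios. MATALPHA1, MATALPHA2, HMLALPHA1, HMLALPHA2 and HMRA2 had a log2 of 0 and a q of 1 throughout the authors' deposited table. HMRA1, in the silent a cassette, was listed at -10 in the group labelled OLE1met250 and at 10 with the SPT23 fragment, and at 0 in the other 3, also with a q of 1 throughout, so no direction is drawn from it. The cassettes are near-copies of the locus, so a value of 0 or 10 is uncertain for these genes.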
